A study of Mus musculus with 15 samples.

Results

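The ubiquitin and proteasome genes described here were the protein-coding RefSeq genes (GRCm38.p6, the assembly that mm10 names) whose symbols begin with Ube, with Usp and a digit, or with Psma, Psmb, Psmc, Psmd or Psme. The rule used symbols alone and found 144 of 21887 coding genes. They were 42 Ube genes, 56 Usp genes and 46 Psm genes. Each was set against the p53 regions of liver, spleen and thymus, and counted when a region overlapped the gene or lay within 5 kb of it. Such a region was found for 39 of the 144 genes in at least 1 organ, and 105 had none. The symbol rule also took in 4 genes named after another protein (Psmc3ip, Psme3ip1, Usp6nl and Ube2cbp), of which Ube2cbp alone had a region.

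The study mapped p53 by chromatin immunoprecipitation sequencing (ChIP-seq) in organs of wild-type mice, with 15 libraries in all. Each organ has 2 libraries taken 3 h after 2 Gy of X-rays, 2 from untreated mice and 1 input library, and the labels give no age or strain. The deposited data are 1 list of scored regions per organ, which the labels attach to all 5 libraries of that organ, so no effect of radiation and no spread between replicates could be measured. There were 3872 regions for liver, 2604 for spleen and 2405 for thymus, and read depth is unknown. The lists hold no expression values, so the organ labels were not checked against markers.

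Ubiquitin is a small protein that is attached to other proteins in a relay of activating (E1), conjugating (E2) and ligating (E3) enzymes. Deubiquitinases, most of them of the Usp family, remove it again. Proteins that carry ubiquitin chains are unfolded and cut by the proteasome, whose core is a stack of rings of alpha (Psma) and beta (Psmb) subunits, capped by a particle of ATPase (Psmc) and other (Psmd) subunits or by activators (Psme). p53 is itself a substrate: the ligase Mdm2, a product of one of its target genes, keeps it scarce in unstressed cells.

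In liver, 38 of the 144 genes had a region, or 26.4% (exact Clopper-Pearson 95% interval 19.4 to 34.4), against 15.2% of all coding genes. The members are longer than most genes, with a median length of 26809 bp against 17169 bp over all coding genes, and longer genes held regions more often. When each member was given the share of coding genes in its own length decile, 24.5 genes were expected, so the liver count was 1.55 times that number (interval 1.14 to 2.02, which scales the exact interval and leaves the expected count fixed). In spleen, 15 genes had a region, 10.4% (5.95 to 16.6), against 8.11% of all coding genes and 13.1 expected from length (ratio 1.15, 0.655 to 1.83). In thymus, 9 genes had one, 6.25% (2.90 to 11.5), against 7.17% of all coding genes and 11.7 expected (ratio 0.771, 0.358 to 1.42). The spleen and thymus shares lay near those of all coding genes. The intervals cover counting error only, and no test was run on gene lists chosen with earlier results known. In the upper 50% of regions by score the liver count was 16 and its ratio 1.20 (0.700 to 1.88).

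The liver list held a region for 38 of the 39 members with any, and for 3331 of the 3431 coding genes with any. A region in liver alone was present for 20 genes (13.9% of the members, against 6.26% of all coding genes). Of the rest, liver was joined by spleen for 9 genes (6.25%, against 2.15% of all coding genes). Thymus joined it for 4 (2.78%, against 1.26%). Both joined it for 5, which thus had a region in all 3 lists (3.47%, against 5.56%). Usp24, which encodes a large deubiquitinase, was the 1 gene with a lymphoid region and none in liver (0.694%, against 0.457%). The liver list is the longest of the 3, and its length cannot be told apart from a wider spread of p53 in that organ. With each list cut to its 2405 regions of highest score, 23 genes had a region in liver (ratio 1.41, 0.919 to 2.03). For spleen the number was 8 (ratio 0.708, 0.309 to 1.36), and for thymus it stayed 9 (0.771, 0.358 to 1.42). A lymphoid region without a liver one was then present for 7 genes, and the same count over all coding genes is not given.

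Scores are the authors' own values for each region, on a scale not given in the sources used here, and were used only as percentile ranks within a list (100 is the highest score). The best regions of the members had a median percentile of 45.3 in liver, where the best regions of all coding genes with one had 54.7. The medians were 14.4 against 38.5 in spleen and 15.8 against 41.7 in thymus. The interval of the member median was 4.76 to 36.8 in spleen, below the median of all coding genes with a region. It was 7.82 to 51.7 in thymus and 29.0 to 66.5 in liver. Both of these contain the median of all coding genes with a region. By median, members of the spleen list thus sat lower in it than all coding genes with a region. No such difference is read from the thymus and liver medians. Of the members, 9 of 15 in spleen and 6 of 9 in thymus fell in the bottom 25%, and 0 of either reached the top 25%. In liver, 10 of 38 reached the top 25% and 9 fell in the bottom 25%. Such counts are not given for all coding genes, so only the medians are compared. Of 14 genes with regions in both liver and spleen, 11 ranked higher in liver (medians 33.0 in liver and 10.9 in spleen), as did 63.9% of all coding genes with both.

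**Figure D1:**
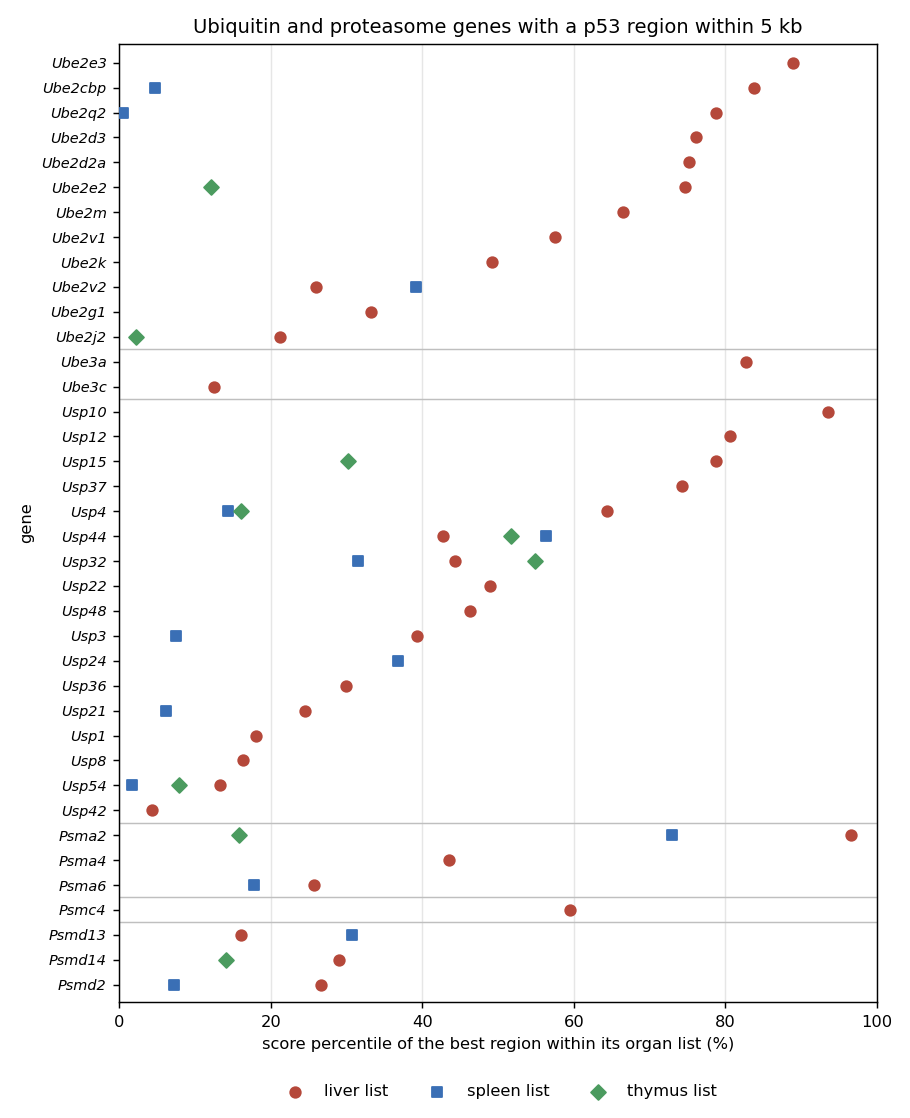
Score percentile of the best region within its own list (horizontal axis, %) for 38 of the 39 genes with a region, grouped from top to bottom as Ube2, other Ube, Usp, Psma, Psmc and Psmd genes. Circles are the liver list, squares spleen and diamonds thymus; liver points run from 4.34 (Usp42) to 96.6 (Psma2), while spleen points reach 72.9 and thymus points 54.9.

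In liver, the Ube2 genes stood above the length-based count. Of 37 such genes, 13 had a region in liver against 6.26 expected, 4 in spleen against 3.30 and 2 in thymus against 2.96. Without Ube2cbp, which is not an E2 gene, the counts were 12, 3 and 2 of 36, against 6.03, 3.12 and 2.79 expected. Ube2e3 ranked first among them, with a liver region 86 bp outside the gene at the 88.9 percentile (chr2:78868101-78868150, mm10) and none in the other lists. The members of the Ube2d family, which serve many RING-type ligases including Mdm2, were split: Ube2d3 (76.1) and Ube2d2a (75.2) had liver regions at gene ends, and Ube2d1 and Ube2d2b had none. The Ube2d3 region was 450 bp wide (chr3:135438301-135438750).

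Some genes of the Ube2 group combined a high liver rank with a low lymphoid one. Ube2cbp, whose product is not an E2 but a protein that binds one, Ube2c, ranked at 83.8 in liver and 4.76 in spleen. Dop1a also lay within 5 kb of the Ube2cbp region. The region near Ube2q2 ranked at 78.8 in liver and 0.422 in spleen. It lay 1372 bp downstream of Ube2q2, and Fbxo22 stood within 5 kb of it too. Ube2e2 held a region deep inside the gene (chr14:18716301-18716550), at 74.7 in liver and 12.1 in thymus. A spleen region 8013 bp from Ube2e2 ranked at 89.5 but lies beyond the counting window.

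An enzyme for a ubiquitin-like protein was among the E2 genes with regions. Ube2m, the E2 that passes Nedd8 to cullins, had a liver region at 66.5 (chr7:13034701-13034950). The region lay 170 bp downstream of the gene and was shared with Trim28 and Chmp2a, so the gene it belongs to is open. The catalytically inactive E2 variants Ube2v1 and Ube2v2, partners of Ube2n in building non-degradative chains, ranked at 57.5 (liver alone) and at 26.0 in liver with 39.2 in spleen, while Ube2n had no region. Further liver regions of the group, at Ube2k, Ube2g1 and Ube2j2, ranked at 49.3, 33.2 and 21.2, and Ube2j2 stood at 2.25 in thymus. The Ube2k region also lay within 5 kb of Smim14.

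Among the 5 other Ube genes, 2 had a region, both in liver alone. Ube3a encodes E6-AP, the ligase that human papillomavirus redirects to p53, and ranked at 82.7 (chr7:59228601-59228750). Ube3c, a related HECT-type ligase gene, ranked at 12.5. Ube4b, whose product acts with Mdm2 on p53, had its nearest region 18340 bp away.

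The Usp genes exceeded the length-based count in liver by a smaller factor. Of 56 Usp genes, Usp6nl included, 16 had a region in liver against 10.6 expected, 7 in spleen against 6.08 and 5 in thymus against 5.46. Usp10, whose human product deubiquitinates cytoplasmic p53, had the highest rank of the family, at 93.5 in liver (chr8:119910601-119910950), 415 bp after the annotated gene start, and no lymphoid region. Usp12, a partner of the Wdr48 cofactor, ranked at 80.6 and Usp37 at 74.3, both in liver alone. The Usp37 region also lay within 5 kb of Cnot9. Usp15, whose product stabilises Mdm2, had a pair of liver regions near its start, at 78.8 and 48.1; the lower of them was also in the thymus list, at 30.2.

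The Usp family supplied 4 of the 5 genes with a region in all 3 lists. Usp44, a regulator of the mitotic checkpoint, ranked at 42.8 in liver, at 56.3 in spleen and 51.7 in the thymus list (chr10:93820801-93820950). Usp32 held a region well inside the gene at 44.3, 31.5 and 54.9 in the same order (chr11:85013201-85013350). These were the only members with a thymus rank above 50. Usp4, a close relative of Usp15, had a 50 bp region at its annotated start at 64.4 in liver, 14.4 in spleen and 16.0 in the thymus list. The region 2862 bp downstream of Usp54 ranked at 13.3, 1.69 and 7.82, and it lay within 5 kb of Ppp3cb, a calcineurin gene, as well. Usp24 held its spleen region inside the gene at 36.8 (chr4:106360701-106360850).

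The other Usp genes with liver regions ranked between 4.34 and 48.9. They were Usp22 (a subunit of the SAGA coactivator), Usp48, Usp3, Usp36, Usp21, Usp1 (which acts on Fancd2 and Pcna in DNA repair), Usp8 and Usp42. Usp3 and Usp21 were also in the spleen list, at 7.43 and 6.11. The best Usp3 region lay 2589 bp downstream of the gene, within 5 kb of Fbxl22 and Herc1, and the Usp21 region lay within 5 kb of Ufc1. A region was lacking for 39 Usp genes, among them all 5 tandem Usp17l genes. Usp7, the deubiquitinase of both p53 and Mdm2, lay 217872 bp from the nearest region, and Usp2, which acts on Mdm2, lay 40774 bp from it.

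The Psm genes had about as many regions as their lengths give. They included Psmc3ip and Psme3ip1, which are named after another protein and had no region. Of 46 Psm genes, 7 had a region in liver against 6.58 expected, 4 in spleen against 3.10 and 2 in thymus against 2.71. Within the core, 3 of 8 Psma genes had a liver region, against 1.28 expected. A region was found for 0 of 11 Psmb genes, where 1.40 were expected in liver, 0.616 in spleen and 0.557 in thymus, so a count of 0 is close to what their lengths give. The Psmb genes include the catalytic subunits, those of the immunoproteasome (Psmb8, Psmb9 and Psmb10) and of the thymus (Psmb11). Psma2 had the highest liver rank of all members, at 96.6, with 72.9 in spleen and 15.8 in thymus. Its region spanned 350 bp (chr13:14612901-14613250) and reached the start of Psma2, and Mrpl32, a mitochondrial ribosome gene, lay within 5 kb of it as well. Psma4 ranked at 43.5 in liver, with Hykk and AY074887 within 5 kb of its region, and Psma6 at 25.7 in liver and 17.8 in spleen.

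The Psmc, Psmd and Psme genes also had about as many regions as their lengths give. Psmc4, an ATPase subunit gene, ranked at 59.6 in liver (chr7:28050101-28050350). It was the 1 of 7 Psmc genes, Psmc3ip included, with a region, against 0.930 expected in liver. Of 14 Psmd genes, 3 had a liver region, against 2.21 expected. Psmd14, the subunit that strips ubiquitin from substrates, ranked at 29.0 in liver and 14.1 in thymus. Psmd2, a scaffold subunit, ranked at 26.7 in liver and 7.22 in spleen. The Psmd13 region ranked at 16.0 in liver and 30.8 in spleen, lay 4644 bp outside the gene and was shared with Sirt3. None of the 6 Psme genes, Psme3ip1 included, had a region in any list, against 0.756 expected in liver. Psmd13 was the member nearest to the 5 kb limit from inside, and Ube2q1 the nearest from outside, at 5904 bp in all 3 lists (percentiles 62.3 in liver, 54.7 in spleen and 69.0 in thymus).

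**Figure D2:**
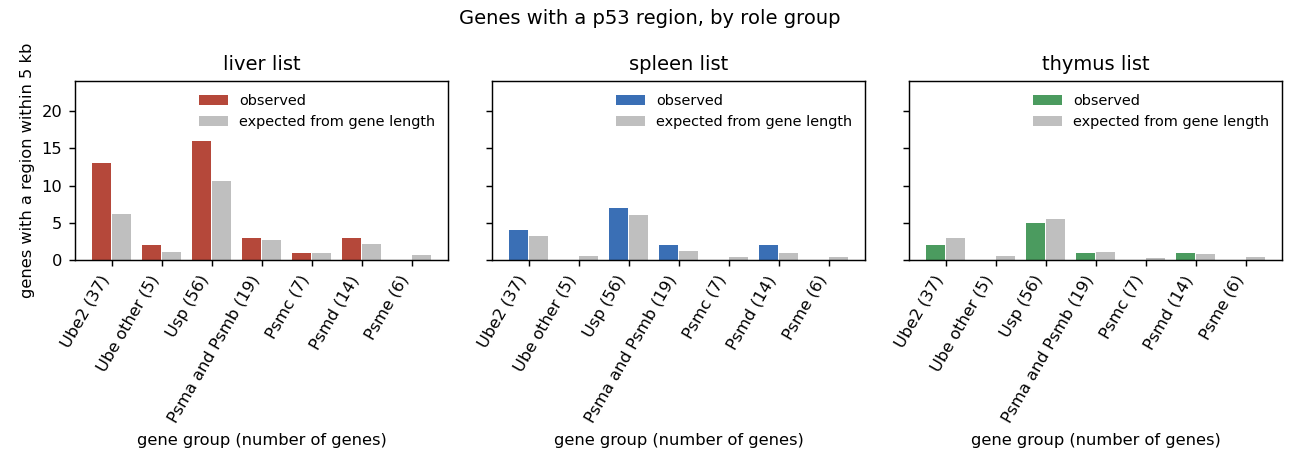
Number of genes with a region within 5 kb in each role group (coloured bars) beside the number expected from gene length deciles (grey bars), for the liver, spleen and thymus lists; the number of genes in each group is in parentheses. The liver bars of Ube2 (13 against 6.26) and Usp (16 against 10.6) stand above the grey bars, and those of the Psm groups lie close to them.

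The liver regions were concentrated at the starts of these genes. The best region lay within 1 kb of a gene end for 27 of 38 members in liver (71.1%, against 56.5% of all coding genes with a region), 6 of 15 in spleen (against 33.7%) and 4 of 9 in thymus (44.4%, against 32.2%). Among the 20 genes with a region in liver alone the number was 18, against 75.5% of such coding genes, and among the 18 with a lymphoid region as well it was 9, against 43.2%. RefSeq promoter windows gave strand and start for 30 of the 38 liver genes. The region midpoint lay within 500 bp of such a start for 23 of the 30 (76.7%, against 54.3% of all coding genes), and for 17 of the 23 it lay upstream, as it did for 1022 of the 1465 coding genes with a region that close. The midpoint lay that close for 6 of 12 genes in spleen and 4 of 8 in thymus, against 28.8% and 27.6% of all coding genes. A further coding gene stood within 5 kb of the best region for 11 members in liver (28.9%, against 43.1% of all coding genes with a region). For spleen the number was 7 (46.7%, against 32.9%) and for thymus 2 (22.2%, against 30.4%).

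**Figure D3:**
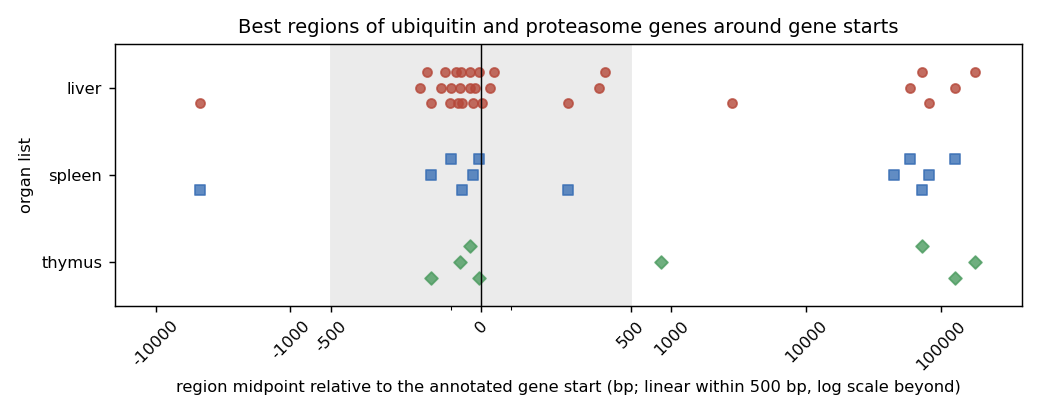
Midpoint of each member's best region relative to the nearest annotated start of its gene (bp, in the direction of transcription; linear within 500 bp, shaded, and logarithmic beyond), with 1 point per gene for 30 liver, 12 spleen and 8 thymus regions. Within the shaded band lie 23 liver, 6 spleen and 4 thymus points, and the points far to the right are regions deep inside or beyond long genes.

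A region of at least 1 list overlapped the window from 250 bases before to 50 bases after the start of 21 members. The 8 with the highest percentiles are shown because their regions overlap this promoter window, by differing lengths. Each is the 250 bases before the gene start (RefSeq, GRCm38.p6), 5′ to 3′ on the strand of the gene. Capitals mark the GC box GGGCGG and the CCAAT box on either strand; the motifs can share bases where CCGCCC runs into CCAAT, which did not occur in the sequences printed.
Psma2, chr13:14612992-14613241, plus strand: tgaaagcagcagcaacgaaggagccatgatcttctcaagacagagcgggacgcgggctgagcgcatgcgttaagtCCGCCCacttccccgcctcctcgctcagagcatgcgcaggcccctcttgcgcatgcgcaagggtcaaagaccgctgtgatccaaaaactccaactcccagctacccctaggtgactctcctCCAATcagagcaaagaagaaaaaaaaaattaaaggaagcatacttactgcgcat
Ube3a, chr7:59228500-59228749, plus strand: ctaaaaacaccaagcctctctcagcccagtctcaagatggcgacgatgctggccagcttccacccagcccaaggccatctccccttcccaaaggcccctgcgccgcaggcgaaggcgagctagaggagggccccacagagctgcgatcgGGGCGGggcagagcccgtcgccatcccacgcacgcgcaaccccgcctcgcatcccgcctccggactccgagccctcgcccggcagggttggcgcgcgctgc
Usp12, chr5:146794957-146795206, minus strand: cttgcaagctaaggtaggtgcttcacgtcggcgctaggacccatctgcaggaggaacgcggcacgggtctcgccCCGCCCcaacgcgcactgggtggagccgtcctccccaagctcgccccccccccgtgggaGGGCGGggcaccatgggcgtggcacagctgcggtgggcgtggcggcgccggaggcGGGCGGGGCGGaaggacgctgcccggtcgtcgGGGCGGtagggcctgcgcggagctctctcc
Ube2d3, chr3:135438066-135438315, plus strand: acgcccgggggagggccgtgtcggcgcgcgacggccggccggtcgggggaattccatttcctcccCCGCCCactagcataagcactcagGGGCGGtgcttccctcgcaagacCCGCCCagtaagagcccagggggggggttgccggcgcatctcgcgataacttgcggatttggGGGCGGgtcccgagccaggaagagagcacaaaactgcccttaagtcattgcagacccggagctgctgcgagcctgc
Usp37, chr1:74505822-74506071, minus strand: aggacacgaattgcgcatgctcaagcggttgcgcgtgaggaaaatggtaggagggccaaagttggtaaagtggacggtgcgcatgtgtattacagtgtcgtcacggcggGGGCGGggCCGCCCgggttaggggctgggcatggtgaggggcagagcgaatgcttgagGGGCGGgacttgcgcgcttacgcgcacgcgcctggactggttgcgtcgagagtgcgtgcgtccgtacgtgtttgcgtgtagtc
Usp4, chr9:108347581-108347830, plus strand: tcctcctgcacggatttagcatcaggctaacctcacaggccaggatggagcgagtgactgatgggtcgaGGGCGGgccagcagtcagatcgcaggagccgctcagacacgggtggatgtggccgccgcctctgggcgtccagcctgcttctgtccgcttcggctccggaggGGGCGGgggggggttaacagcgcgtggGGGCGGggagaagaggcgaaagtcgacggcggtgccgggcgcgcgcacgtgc
Psmc4, chr7:28050093-28050342, minus strand: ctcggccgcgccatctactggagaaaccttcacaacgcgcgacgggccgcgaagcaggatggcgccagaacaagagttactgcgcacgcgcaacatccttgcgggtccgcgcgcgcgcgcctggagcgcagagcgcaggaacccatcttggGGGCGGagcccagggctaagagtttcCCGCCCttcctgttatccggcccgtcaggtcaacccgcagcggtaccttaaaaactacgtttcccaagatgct
Ube2v1, chr2:167632006-167632255, minus strand: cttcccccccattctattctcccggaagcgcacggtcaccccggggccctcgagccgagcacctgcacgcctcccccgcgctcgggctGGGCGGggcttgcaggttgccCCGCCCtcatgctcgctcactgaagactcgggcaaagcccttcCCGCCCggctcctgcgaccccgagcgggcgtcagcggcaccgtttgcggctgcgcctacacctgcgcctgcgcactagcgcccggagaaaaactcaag
The deposited region covered all 250 bases for Psma2 and 149 for Ube3a, but 30 for Usp4 and 15 for Ube2d3. GC boxes were present in all 8 sequences, with 5 in Usp12 and 1 each in Psma2 and Ube3a.

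Over the 21 members, a GC box was found in 18 upstream sequences and a CCAAT box in 3. The share of sequences with a GC box was 86.4% of 22 member windows with a liver region, against 69.7% of all coding gene windows with one and 42.6% of all 21263 coding gene windows. For the CCAAT box the shares were 13.6%, against 27.3% and 35.4%. The p53 half-site, a 10-letter consensus searched on both strands without mismatch, was found in 2 of the 21. Usp48 held GGGCAAGCTC beginning 229 bases before the start, and Ube3c held AGGCAAGTCC beginning 149 bases before it. Their deposited regions covered only the 71 and 141 bases nearest the start. The Usp48 match thus lay outside its region, and so did most of the Ube3c match. Of all coding gene windows, 6.31% held a half-site, and 5.84% of those with a liver region did. A pair of half-sites at most 13 bases apart was found in 0 of 133 member windows and 10 of the 21263. These matches are descriptions of letters in the windows.

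The wider ubiquitin pathway was counted in the same way from 115 other genes in 7 lists, of which 113 matched a coding gene. A region was found for 38 of them in liver against 19.6 expected from length, 20 in spleen against 10.2 and 15 in thymus against 8.87. By role, E1 enzymes gave 5 of 9 genes for liver, 2 for spleen and 2 for thymus, against 1.66, 0.911 and 0.809 expected. Ligases linked to p53 gave 5, 4 and 3 of 16, against 2.94, 1.63 and 1.44. With the ligase gene Syvn1, which a misspelt symbol had kept out of the list, they gave 6, 5 and 3 of 17, against 3.07, 1.69 and 1.49. Cullin ligase subunits and regulators gave 6, 5 and 4 of 20, against 3.73, 2.004 and 1.77. Other deubiquitinases gave 9, 2 and 3 of 27, against 4.74, 2.37 and 2.07, so their spleen count did not exceed the length-based one. Proteasome assembly and control genes gave 5, 3 and 2 of 16, against 2.7, 1.37 and 1.15. Shuttle and segregase genes gave 6, 3 and 0 of 16, against 2.72, 1.38 and 1.22. Ubiquitin-like modifiers gave 2, 1 and 1 of 9, against 1.14, 0.498 and 0.418. The list of ligases includes known p53 targets such as Mdm2, whose best region ranked at 76.0, 63.5 and 27.0 in liver, spleen and thymus.

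Some genes of this wider set had a region in every list, and their best regions ranked high in most lists. The best region was not always the same one in each list. Dcun1d3, a regulator of cullin neddylation, ranked at 84.5 in liver, at 99.2 in spleen and 88.4 in the thymus list (chr7:119861201-119861750, also within 5 kb of Rexo5). Ngly1, which deglycosylates the proteasome regulator Nfe2l1, had an internal region at 97.8 in spleen and 98.9 in thymus, and its best liver region, at a gene end shared with Oxsm, at 82.4. The cullin gene Cul4a ranked at 83.8, 59.3 and 88.9. Atg7, the E1 of autophagy, ranked at 95.2, 76.7 and 83.0. Its best liver region was also in the spleen list, and the region that ranked best in spleen and thymus was in all 3 lists. Other genes ranked high in liver and lower, or not at all, elsewhere. Sae1, a subunit of the SUMO E1, had the same order of ranks as Psma2, at 96.5 in liver, 25.3 in spleen and 8.15 in the thymus list. The ligase gene Cop1, which acts on p53, ranked at 90.9 in liver and 12.9 in spleen. The proteasome shuttle gene Rad23b ranked at 89.0 and 36.6 in the same organs. The chaperone gene Bag6 (89.2) and the deubiquitinase gene Otud6b (82.9) had regions in liver alone, and Apom also lay within 5 kb of the Bag6 region. The region at the ubiquitin-like gene Fau ranked at 68.7 in liver and 11.8 in spleen, and 4 other coding genes, Syvn1 among them, stood within 5 kb of it.

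Other large gene sets that most cells use gave liver shares of the same order. Against the 26.4%, 10.4% and 6.25% of the ubiquitin and proteasome genes stood 26.8%, 11.8% and 5.23% of 153 cytosolic ribosomal protein and initiation factor genes. Mitochondrial ribosome genes gave 24.4%, 16.7% and 15.4% of 78, and histone modifier genes 40%, 15.6% and 13.3% of 45. The ratio to the length-based count in liver was 1.55 for the ubiquitin and proteasome genes and 2.14, 1.93 and 2.05 for these 3 sets. In spleen it was 1.15 against 1.98, 2.94 and 1.39, and in thymus 0.771 against 0.987, 3.14 and 1.31. The ubiquitin and proteasome genes thus had the lowest ratio in each list. The differences between sets were not tested.

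**Figure D4:**
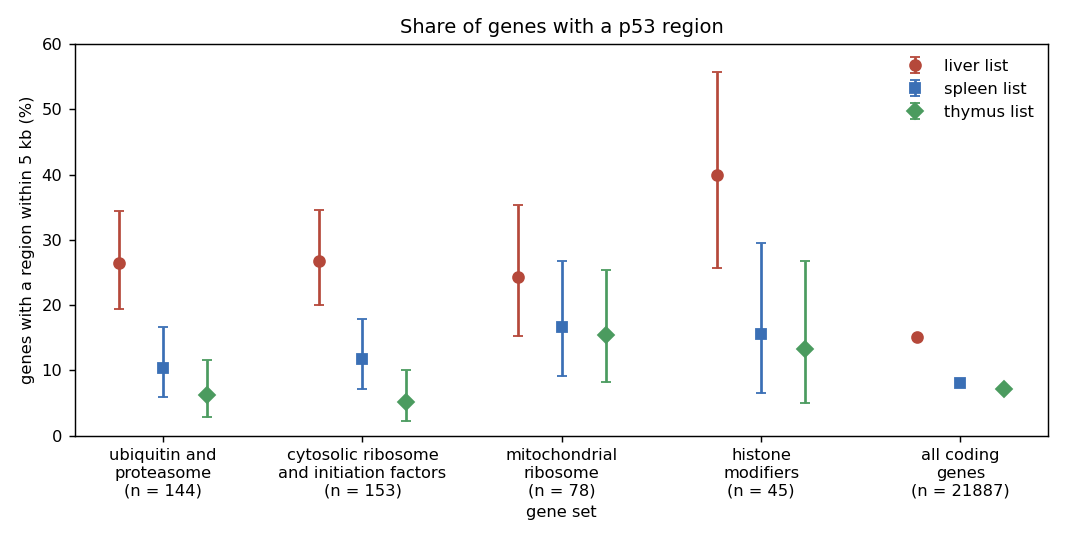
Share of genes with a region within 5 kb (%) in the liver (circles), spleen (squares) and thymus (diamonds) lists for 4 gene sets and all 21887 coding genes; bars are exact 95% intervals, which cover counting error only. The ubiquitin and proteasome genes lie at 26.4%, 10.4% and 6.25%, and the points of all coding genes at 15.2%, 8.11% and 7.17%.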

How the data were processed

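The authors deposited 1 headerless list of regions per organ, in mm10 per the submitters' processing notes, with a score for each region in the fifth column. The scale of that score, the aligner, the region caller, the control and any pooling of libraries are steps not given in the sources used here; region boundaries lie on multiples of 50 bp. Genes and promoter windows came from RefSeq tables of GRCm38.p6; strand was available for 117 of 144 members, and no genome sequence was used. A gene was counted when at least 1 bp of a region lay in it or within 5 kb. Expected counts sum, over members, the share of all 21887 coding genes in the same length decile. Scores were used as percentile ranks, with ties averaged. The best region of a gene is the one of highest percentile.

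The members and gene lists were chosen with earlier results of these data known, so no p-values are given. Named genes were those with regions in all 3 lists, those with a lymphoid region only, the 15 highest in liver and the highest of each group; Usp7, Usp2, Ube4b and some others are named for known roles, chosen after their values were seen. Counting was tested on simulated data and checked against bedtools 2.31.1. Analyses used Python 3.11.15, pandas 2.3.3 and scipy 1.17.1. Alternatives covered the window, score, list length, neighbouring genes, overlap, members and length classes. The names of the lists refer to irradiation and IgG, although no library is labelled IgG, and the labels name no antibody. Results for a few genes, and for 1 further list of pathway genes, are not reported here; members among them stay in the totals. The ligase list with Syvn1 was added after the data were seen.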

Additional observations from a re-analysis of the deposited data

How the results depend on the processing

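Of 156 alternative values for counts, ratios, median percentiles and shares at gene ends, 133 stayed within 1.5 times the reported count or inside the interval of the reported value. Some could hardly leave these limits. Leaving out the Usp17l genes, none with a region, could not change any count, median or gene-end share. The lymphoid intervals are also wide (thymus ratio 0.358 to 1.42). In the upper 50% of regions by score, 10 values left the limits and 5 did not. The liver ratio ran from 1.20 to 1.91, the thymus ratio from 0.401 to 1.01 and the spleen ratio from 0.370 to 1.32, each lowest in the upper 50% of regions by score.

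In that upper 50%, the counts were 16 for liver, 2 for spleen and 2 for thymus; 0 genes were in all 3 lists and 2 were in a lymphoid list without liver. The median percentiles were then 77.5 in liver, 64.6 in spleen and 53.3 in thymus, because lower ranks had been removed. The 2 spleen members left had their region at a gene end (100%, interval 15.8 to 100). Lists cut to the shortest gave 23 genes in liver (ratio 1.41, median percentile 74.3) and 8 in spleen. They put 7 in a lymphoid list without liver, and no such share over all coding genes is given. With regions within 1 kb of a gene end, 6 genes were left in spleen, 4 in thymus, 2 in all 3 lists and 0 in a lymphoid list without liver. Counting regions inside genes only gave 9 in spleen, and windows of 10 kb gave 9 genes in all 3 lists. Assigning each region to its nearest coding gene left 3 genes in all 3 lists. Leaving out regions near a second coding gene left 8 in spleen and 3 in all 3 lists. For none of these settings is the split between lists given over all coding genes. The counts in all 3 lists or without liver therefore show nothing particular to the members. Apart from the medians, the cause of these shifts was not tested. Settings chosen after the data were seen gave liver ratios of 1.55 and 1.54. They dropped the 4 genes named after another protein, or split the length classes by a neighbouring gene end.

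No paired analysis was possible because the lists hold no values per library. Depth is unknown, and a gene without a region is one where none was called, not one shown to lack p53.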
